A study of Oryza sativa with 6 samples.

Results

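Small heat shock proteins and HSP101 are chaperones of the plant heat response, and 10 rice loci of these kinds, out of 57839 loci in the deposited count table, are described here in leaves with and without an autophagy mutation. The loci were chosen by their IDs, with earlier results of these data known. Of these, 5 are class I (cytosolic) small heat shock protein loci numbered in a block on chromosome 1 and 4 are such loci on chromosome 3. The last is the HSP101 locus on chromosome 5. These family names come from the definition of the gene set. The files hold only IDs, and the reference gene table used here matched 0 of all 55801 LOC_Os IDs, the 10 included. The names therefore could not be checked against an annotation. The libraries come from mature leaves of field-grown rice (Oryza sativa) at tillering, the stage of side-shoot formation, under natural long days, in a study of autophagy and flowering time. Wild-type plants (WT) and the mutant line osatg5-1, named for the autophagy gene ATG5, have 3 libraries each. The labels give neither the cultivar nor the nature of the mutant allele, and they name a single mutant line. Whether replicates came from different plants is not stated either, and the p-values therefore reflect library-to-library spread that may be technical. The transcript of OsATG5 and leaf marker genes were not analysed here.

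Small heat shock proteins carry an alpha-crystallin domain, assemble into oligomers and hold unfolding proteins in a state from which they can be refolded, without using ATP. Class I members act in the cytosol and are best known for their strong induction by heat, driven by heat shock factors. HSP101, the cytosolic member of the ClpB family, is a ring-shaped ATP-driven machine that pulls proteins out of aggregates together with HSP70, and in Arabidopsis and maize it is needed for acquired heat tolerance. Autophagy, in which ATG5 helps to form the enclosing membrane, carries cell constituents to the vacuole for breakdown.

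The 6 libraries held 30927816 to 39351357 counts, and 3 counts equal 0.0762 to 0.0970 CPM, the unit that divides counts by library size. Levels are given as CPM after TMM scaling, a correction for library composition, or as FPKM, the authors' value per length, where loci are compared with each other. Genotypes were compared with edgeR's quasi-likelihood test over 23074 loci, and a locus was called at a Benjamini-Hochberg adjusted p under 0.05. Over all tested loci 16.4% were called, 8.23% higher and 8.21% lower in osatg5-1.

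Transcripts of 4 of the 8 tested loci rose in osatg5-1 leaves, and 0 fell. The risers were LOC_Os01g04380 (6.45-fold) and LOC_Os01g04370 (2.68-fold) of the chromosome 1 block, LOC_Os03g15960 (1.69-fold) of the chromosome 3 block, and the HSP101 locus LOC_Os05g44340 (1.49-fold). The other 4, LOC_Os01g04350, LOC_Os03g16020, LOC_Os03g16030 and LOC_Os03g16040, did not pass the test, and LOC_Os01g04340 and LOC_Os01g04360 had too few counts to be tested. The median log2 fold change was 0.46 over the 8 tested loci and 0.00162 over all tested loci. In leaf samples of mixed cells, more cells of a type and more RNA per cell cannot be told apart.

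**Figure D1:**
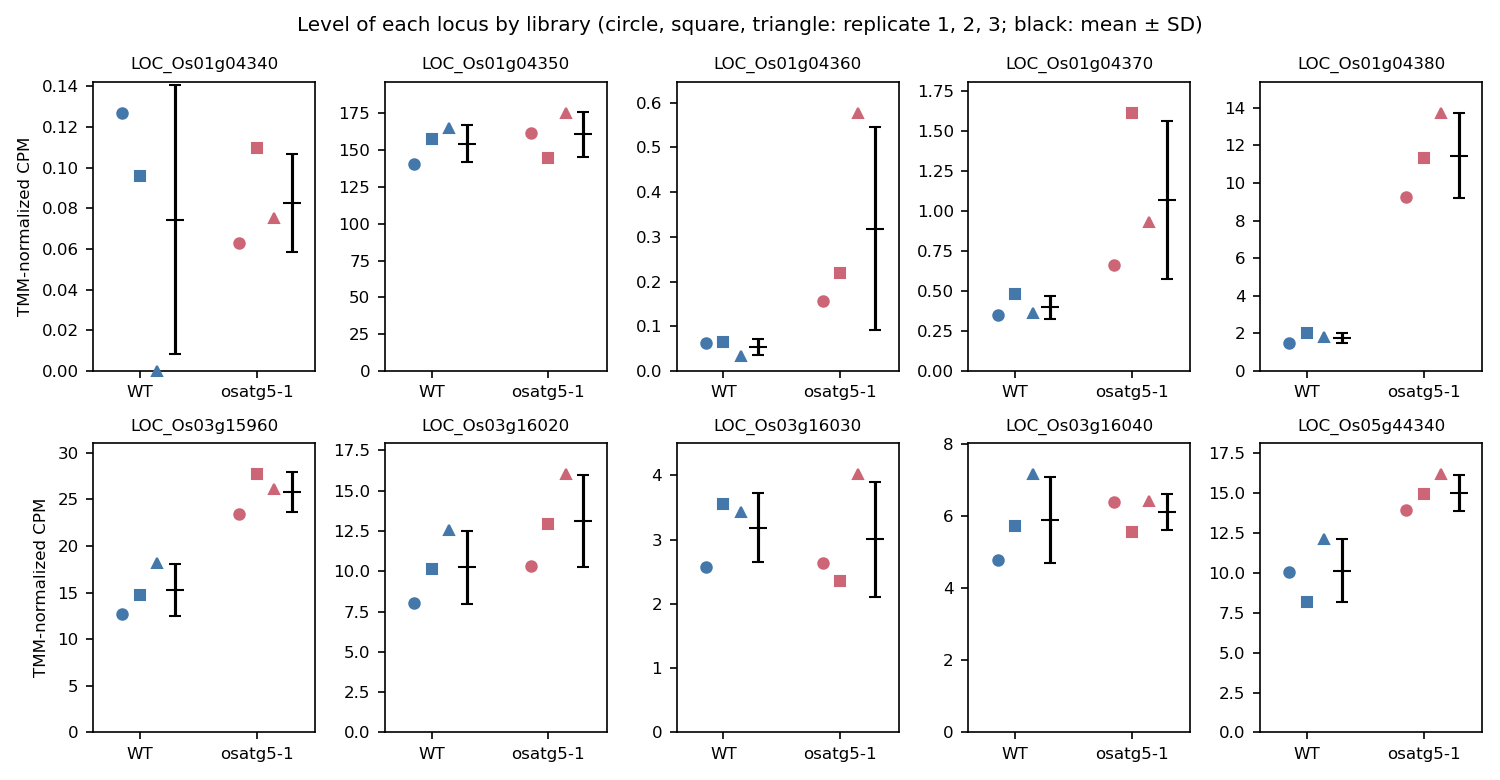
TMM-normalized CPM (vertical axes, linear from 0, 1 scale per panel) of each of the 10 loci in the 3 WT and 3 osatg5-1 libraries; symbols mark the replicate and black bars the mean ± SD. All 3 mutant libraries lie above all 3 WT libraries at LOC_Os01g04360, LOC_Os01g04370, LOC_Os01g04380, LOC_Os03g15960 and LOC_Os05g44340, and the genotypes overlap at the other 5.

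LOC_Os01g04380, the last-numbered locus of the chromosome 1 block, showed the widest separation of the genotypes among the 10. It stood at 1.49, 2.02 and 1.82 CPM in WT replicates 1 to 3 and at 9.24, 11.3 and 13.7 CPM in osatg5-1 replicates 1 to 3. Every mutant library was high, and the lowest of them was 4.58 times the highest WT library. The mean went from 1.78 ± 0.265 to 11.4 ± 2.26 CPM (SD, n = 3 each), a log2 fold change of 2.69 ± 0.19 (SE; 95% interval 2.26 to 3.11; adjusted p = 2.17e-05, edgeR quasi-likelihood test). Only 146 of the 1899 loci called higher in the mutant had a larger fold change.

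LOC_Os01g04370, next to it in number, changed in the same direction from a much lower level. Its WT libraries held 0.349, 0.480 and 0.363 CPM, from 11 to 15 counts each, and its osatg5-1 libraries 0.660, 1.61 and 0.930 CPM, from 21 to 59 counts. The genotypes did not overlap, and osatg5-1 replicate 2 stood well above the other mutant libraries. The log2 fold change was 1.42 ± 0.42 (SE; 95% interval 0.48 to 2.36) with an adjusted p of 0.0459 (edgeR), just inside the threshold. The call was lost with DESeq2 (adjusted p = 0.0672), limma-voom (adjusted p = 0.0734) and a replicate block (adjusted p = 0.0512), and when any library other than osatg5-1 replicate 1 was left out. Without osatg5-1 replicate 2 its log2 fold change was 1.00 (edgeR adjusted p = 0.188).

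LOC_Os01g04360 was near the detection limit and was not among the loci tested. It had 2, 2 and 1 counts in the WT libraries and 5, 8 and 23 counts in the mutant libraries. All mutant libraries were above all WT libraries, and osatg5-1 replicate 3 alone held most of the mutant counts. Scaled for library size, the 36 mutant counts against 5 WT counts gave a ratio of 6.19 (exact binomial 95% interval 2.42 to 20.2). That interval covers counting error only and takes counts as independent, so it may be too narrow. With no filter on low counts the edgeR adjusted p was 0.0956. LOC_Os01g04340 had 4, 3 and 0 counts in WT and 2, 4 and 3 in osatg5-1, a ratio of 1.11 (0.366 to 3.49), so a difference between the genotypes was not detectable at this depth.

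LOC_Os01g04350 stood apart from the other 4 loci of its block. It held 140.4, 157.6 and 165.4 CPM in WT and 161.9, 144.9 and 175.7 CPM in osatg5-1. The genotypes overlapped, and the log2 fold change of 0.06 ± 0.09 (SE; adjusted p = 0.713, edgeR) had a 95% interval from -0.14 to 0.25, or 0.908-fold to 1.19-fold. Per length it was at 141 ± 11.1 FPKM in WT (SD, n = 3), while its 4 block neighbours in the set were at 1.81 FPKM or less on average there. By mean FPKM over all 6 libraries LOC_Os01g04350 stood above 98.0% of tested loci. The files give no annotation by which its family name could be checked, so its place among the class I small heat shock proteins is uncertain.

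In the chromosome 3 block LOC_Os03g15960 was the locus that passed the test. It read 12.7, 14.8 and 18.2 CPM in WT and 23.4, 27.7 and 26.2 CPM in osatg5-1. The lowest mutant library was 1.29 times the highest WT library. Its mean rose from 15.2 ± 2.79 to 25.8 ± 2.17 CPM (SD, n = 3 each), a log2 fold change of 0.76 ± 0.13 (SE; 95% interval 0.47 to 1.05; adjusted p = 0.00318, edgeR).

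The other 3 loci of that block overlapped between the genotypes. LOC_Os03g16020 stood at 8.04, 10.1 and 12.6 CPM in WT and at 10.3, 12.9 and 16.03 CPM in the mutant, and the log2 difference was 0.36 ± 0.19 (SE; adjusted p = 0.237, edgeR). Its 95% interval, from -0.06 to 0.78, includes a rise as large as that of LOC_Os03g15960. Within each genotype its level rose from replicate 1 to replicate 3. With a replicate block its log2 difference was 0.35 and its adjusted p 0.0529 (edgeR), just outside the threshold. LOC_Os03g16030 ran from 2.57 to 3.55 CPM in WT and from 2.35 to 4.02 CPM in the mutant, and LOC_Os03g16040 from 4.80 to 7.17 CPM and from 5.55 to 6.41 CPM. Their log2 differences were -0.08 ± 0.24 and 0.05 ± 0.17 (SE; adjusted p = 0.861 and 0.872, edgeR), with intervals of -0.62 to 0.46 and -0.32 to 0.43. At both loci the lowest WT library was replicate 1 and the range within a genotype exceeded the difference between the means.

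The HSP101 locus LOC_Os05g44340, the disaggregase of the set, rose modestly. It held 10.04, 8.20 and 12.1 CPM in WT and 13.9, 14.9 and 16.2 CPM in osatg5-1. The genotypes did not overlap, with the lowest mutant library at 1.15 times the highest WT library. The mean went from 10.1 ± 1.96 to 15.01 ± 1.13 CPM (SD, n = 3 each), a log2 fold change of 0.57 ± 0.14 (SE; 95% interval 0.26 to 0.89; adjusted p = 0.0214, edgeR). The call was lost when WT replicate 1, WT replicate 2, osatg5-1 replicate 2 or osatg5-1 replicate 3 was left out, at adjusted p-values of 0.0538 to 0.073 (edgeR).

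**Figure D2:**
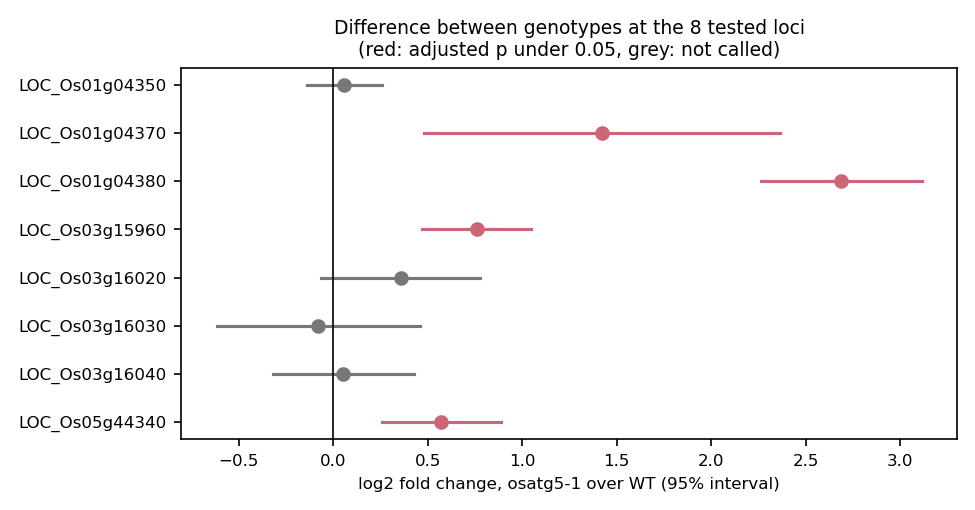
Log2 fold change of osatg5-1 over WT (horizontal axis) for the 8 tested loci, with 95% intervals as bars; red marks an adjusted p under 0.05 (edgeR, n = 3 per genotype). LOC_Os01g04380 at 2.69 lies to the right of every other locus, and the intervals of the 4 grey loci include 0.

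All mutant libraries were above all WT libraries at 5 of the 10 loci, and at 4 of the 8 that were tested, whereas 17.6% of all tested loci showed that order and 35.4% showed no overlap in either direction. The reverse order occurred at 0 of the 10. Because the set was chosen with earlier results of these data known, these shares only describe it. The small heat shock protein loci that were tested have implied lengths of 526 to 1169 bases. Among the 3783 tested loci within that range of length, 8.64% were called higher and 6.82% lower, close to the shares over all loci.

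Ordered by level per length, the set spanned from 141 FPKM to under 0.1 FPKM in WT leaves. Behind LOC_Os01g04350 came LOC_Os03g16020 at 19.1 ± 4.15, LOC_Os03g15960 at 12.8 ± 2.26 and LOC_Os03g16040 at 10.6 ± 2.08 FPKM (SD, n = 3). Each of the first 2 overlapped with the next in order, while every library of LOC_Os03g16040 lay above the loci that follow. LOC_Os03g16030 (2.82 ± 0.472 FPKM) and the HSP101 locus (2.69 ± 0.507 FPKM) also overlapped. Below them, and separate from each other in every library, were LOC_Os01g04380 at 1.81 ± 0.280 and LOC_Os01g04370 at 0.389 ± 0.0653 FPKM, followed by LOC_Os01g04340 and LOC_Os01g04360 at 0.0546 and 0.0377 FPKM.

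The order in the mutant differed mainly by the place of LOC_Os01g04380. It stood 7 in WT and 4 in osatg5-1, where its 12.2 ± 2.38 FPKM overlapped with the 11.4 ± 0.909 FPKM of LOC_Os03g16040. LOC_Os03g15960 came to 22.4 ± 1.87 FPKM, still overlapping with LOC_Os03g16020 at 25.3 ± 5.47 FPKM. The HSP101 locus, at 4.13 ± 0.305 FPKM, lay above LOC_Os03g16030 at 2.74 ± 0.812 FPKM in every mutant library, which was not so in WT.

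**Figure D3:**
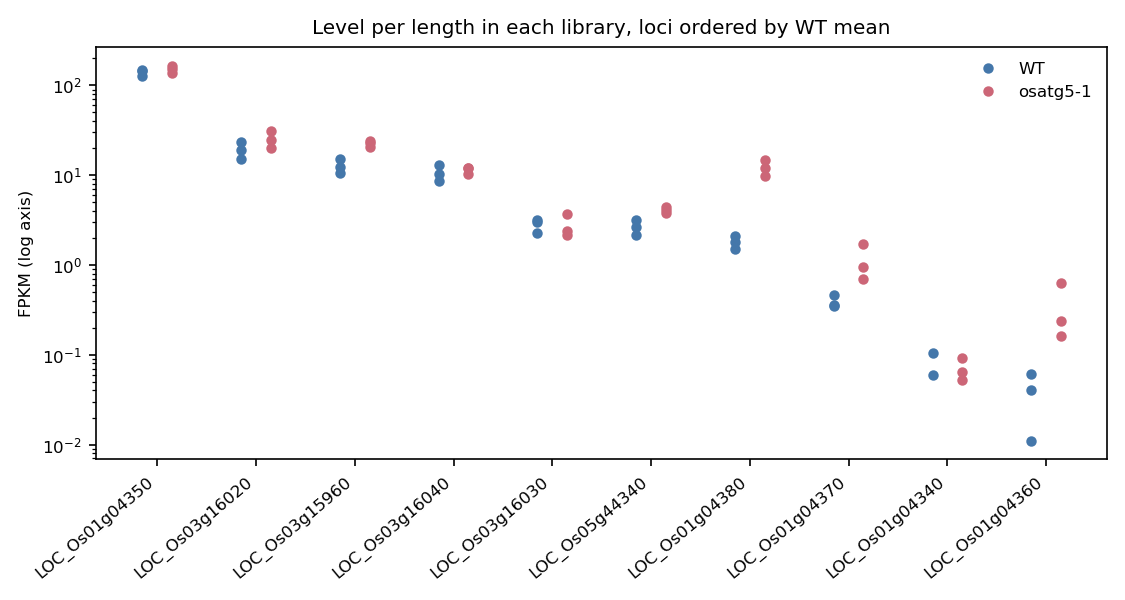
FPKM (log axis) of each locus in every WT (blue) and osatg5-1 (red) library, ordered by the WT mean; the library listed at 0, WT replicate 3 at LOC_Os01g04340, is not drawn. LOC_Os01g04350 tops the order in both genotypes, and LOC_Os01g04380 moves from 1.81 to 12.2 FPKM on average.

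Sums over a whole block do not depend on how reads that match several of its loci were split among them. They do depend on whether such reads were dropped, counted more than once or shared with loci outside the block. The authors' treatment of such reads is not given in the sources used here, and how alike the copies are was not checked. The 5 chromosome 1 loci together held 142, 160.3 and 168 CPM in WT and 172, 158 and 191 CPM in osatg5-1, and these overlapped. LOC_Os01g04350 made up 98.2% to 98.6% of the block's summed FPKM in WT and 90.7% to 93.5% in the mutant. Without it, a choice made after its values were seen, the other 4 summed to 2.03, 2.66 and 2.21 CPM in WT and 10.1, 13.3 and 15.3 CPM in osatg5-1, 5.61 times the WT mean. LOC_Os01g04380 made up 1.78 of the mean 2.30 CPM in WT and 11.4 of 12.9 CPM in osatg5-1, so this sum largely repeats that locus, and it can depend on how reads were split with LOC_Os01g04350. The 4 chromosome 3 loci summed to 28.1, 34.2 and 41.4 CPM in WT and 42.8, 48.5 and 52.6 CPM in the mutant, 1.39 times the WT mean, with the genotypes just apart. LOC_Os03g15960 made up 15.2 of the mean 34.6 CPM in WT and 25.8 of 48.0 CPM in osatg5-1. Every other locus of the block overlapped between the genotypes, so the sum does not show a rise across the block. Within that block LOC_Os03g15960 took 27.7% to 29.1% of summed FPKM in WT and 32.8% to 39.1% in osatg5-1. LOC_Os03g16040 took 23.1% to 23.7% in WT and 16.9% to 21.8% in osatg5-1. For LOC_Os03g16030 the shares were 5.56% to 7.01% in WT and 3.47% to 5.29% in osatg5-1. Neither LOC_Os03g16040 nor LOC_Os03g16030 was called, and a smaller share of a larger sum is not a fall in level.

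Libraries of 1 genotype also differed at these loci. WT replicate 1 was the lowest WT library at 7 of the 10 loci, and osatg5-1 replicate 3 was the highest mutant library at 7 and osatg5-1 replicate 1 the lowest at 7. The mean centred log2 level over the 8 tested loci was -0.55, -0.31 and -0.18 in WT replicates 1 to 3. It was 0.17, 0.37 and 0.51 in osatg5-1 replicates 1 to 3, so it rose with replicate number in both genotypes. Loci with large fold changes weigh most in this mean. Log2 fold changes of single loci ran from -0.08 at LOC_Os03g16030 to 2.69 at LOC_Os01g04380, so it does not show a shift at every locus. The part of these differences between libraries in the results above was not tested beyond leaving out each library.

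**Figure D4:**
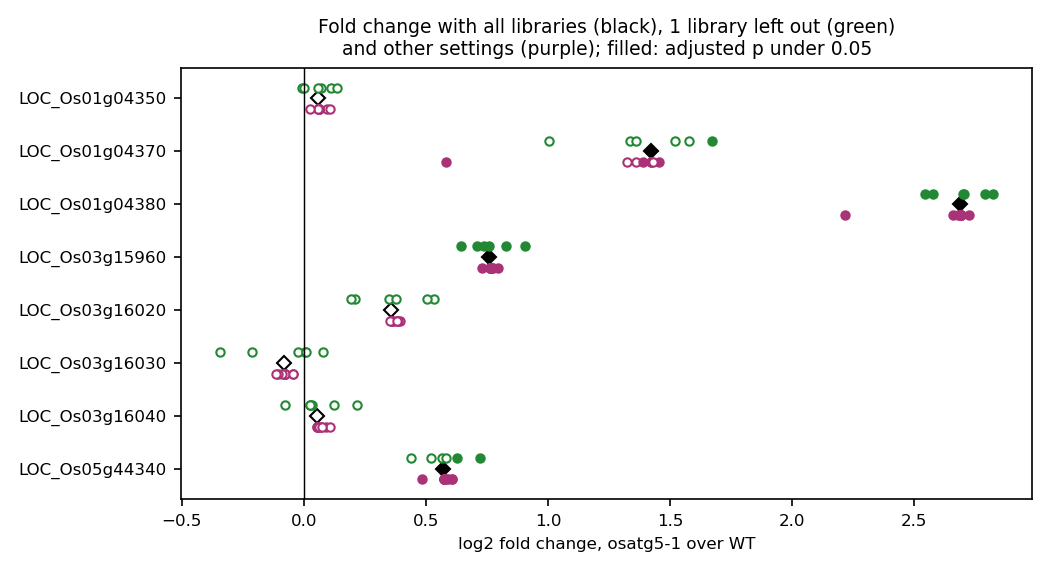
Log2 fold change (horizontal axis) of each tested locus with all libraries (black diamonds), with 1 library left out (green) and under the other settings (purple); filled symbols have an adjusted p under 0.05. LOC_Os01g04380 and LOC_Os03g15960 are filled throughout, at 2.22 or more and 0.64 or more, while LOC_Os01g04370 and LOC_Os05g44340 are filled in some settings only.

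Loci lying beside the blocks were read for comparison. They are the 63 other LOC_Os IDs inside the number range of each block or within 100 of its ends, taken by number alone and given no role. Of the 46 that were tested, 4 rose and 2 fell, or 13% called against 16.4% over all loci, with a median log2 fold change of 0.01 (edgeR). LOC_Os01g04330, the ID just below the chromosome 1 block, rose 2.91-fold, with WT libraries spread from 1.49 to 8.09 CPM and mutant libraries from 11.1 to 21.1 CPM (edgeR adjusted p = 0.0430). LOC_Os03g16060 rose 1.98-fold, LOC_Os05g44310 1.70-fold and LOC_Os03g15860 1.26-fold, while LOC_Os03g15890 and LOC_Os03g16090 fell by 0.26 and 0.62 on the log2 scale; these 6 are named because they were called. On chromosome 3, the 2 tested loci that lie by number between LOC_Os03g15960 and LOC_Os03g16020 were not called.

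**Figure D5:**
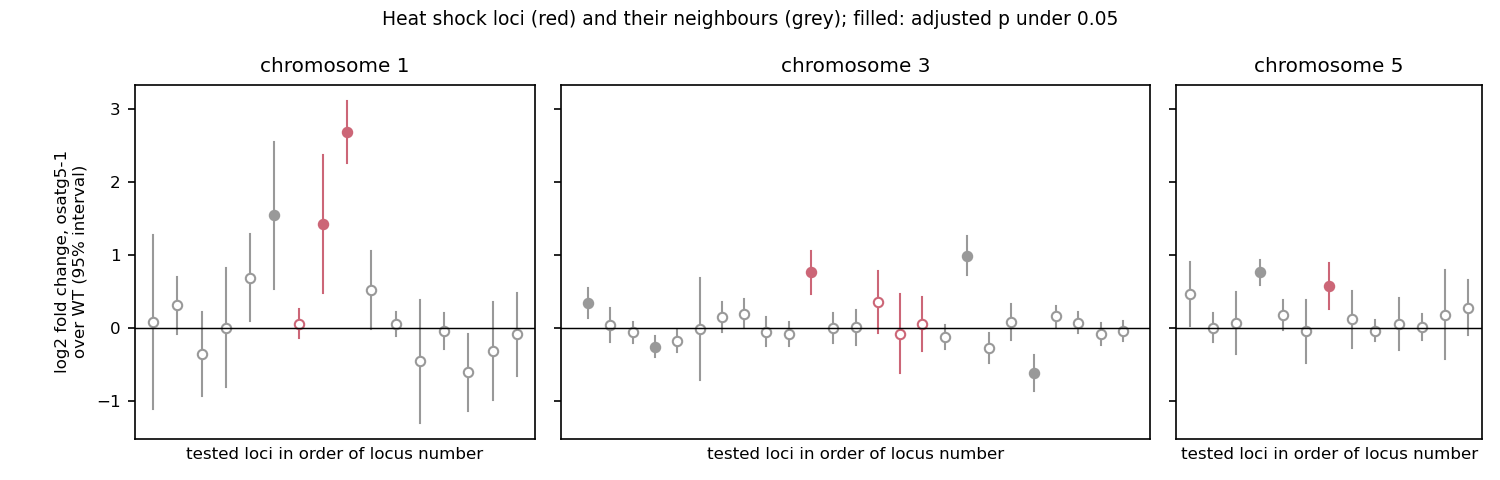
Log2 fold change of osatg5-1 over WT with 95% intervals (vertical axis) for the tested heat shock loci (red) and their tested neighbours (grey), in order of locus number on chromosomes 1, 3 and 5; filled symbols have an adjusted p under 0.05. The highest point is LOC_Os01g04380 at 2.69, and 40 of the 46 neighbours are open symbols.

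For comparison with the members, 3 lists of other heat shock genes were read in the same way. Their IDs were written down from general knowledge of rice locus numbering, and because neither the files nor the reference table annotates them, the lists are given as counts only and no ID is named. Of 16 tested loci listed as heat shock factors, the transcription factors of the heat response, 1 rose and 3 fell (median log2 fold change -0.01). That rise was not called without WT replicate 1 or without any one of the osatg5-1 replicates, and without osatg5-1 replicate 1 or 2 the calls numbered 2, both falls. Of 5 tested loci listed as small heat shock proteins outside both blocks, 0 rose and 2 fell (median -0.34). With no filter on low counts 8 had a p and 2 rose and 2 fell. Leaving out WT replicate 1, WT replicate 3 or osatg5-1 replicate 1 gave 7 tested loci, of which 2 rose and 2 fell. With DESeq2 8 had a p and 1 rose and 2 fell. Of 11 tested loci listed as HSP70, HSP90 or ClpB-type chaperones, 0 rose and 1 fell (median -0.23, edgeR). That count of falls ran from 0 to 4 over the settings. The medians of the first and second list changed sign in some settings, with ranges of -0.05 to 0.02 and -0.38 to 0.12, and that of the third ran from -0.25 to -0.16. The second list held 5, 7 or 8 loci with a p, depending on the setting, so its medians do not cover the same loci. The shares called were 25%, 40% and 9.09%, against 16.4% over all tested loci, on small numbers.

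The 2 loci outside the set whose log2 CPM over the 6 libraries was most like the mean profile of the 8 tested members, out of 23066 candidates, were LOC_Os07g41080 (Pearson r = 0.996) and LOC_Os05g49630 (r = 0.995). The 6 points share their library and fall into 2 genotypes, so these values only describe the likeness. LOC_Os05g49630 went from 3.62 ± 0.626 to 5.88 ± 0.597 CPM and LOC_Os07g41080 from 42.8 ± 1.94 to 52.4 ± 2.15 CPM (SD, n = 3 each). Among the members themselves, r with that profile, of which each is a part, was 0.977 for LOC_Os03g15960, 0.962 for LOC_Os01g04380, 0.882 for LOC_Os05g44340, 0.861 for LOC_Os01g04370 and 0.837 for LOC_Os03g16020, which was not called, and 0.479 or less for LOC_Os01g04350, LOC_Os03g16030 and LOC_Os03g16040.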

How the data were processed

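Per the file headers, the authors deposited unnormalized read counts for each locus in 1 table and FPKM values, scaled for length and depth, in 1 file per library. HISAT2 and the build IRGSP-1.0 are named in the submitters' processing notes. The counting tool, its strand setting, the annotation and the handling of reads that map to several copies were not given in the sources used here. Tandem small heat shock protein genes can be near-identical, so counts of single loci within a block are uncertain. Loci with 2 counts outnumbered those with 1 count by 2.58 to 2.83 times per library, so counts need not be independent fragments. Exact binomial intervals and the floor of 3 counts cover counting error only and take counts as independent. Those intervals may therefore be too narrow.

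Libraries were grouped by title. Loci that pass filterByExpr were tested with edgeR 4.0.16 (quasi-likelihood test, R 4.3.3) on TMM-scaled libraries, and the model held genotype alone. The SE is the log2 fold change divided by the square root of F, and the 95% interval uses the t distribution with the test's degrees of freedom. The script was tested on simulated counts. Implied length is the median over libraries of the length that counts and FPKM give. Alternatives were RLE and library-size scaling, no filter, 1 CPM in 3 libraries, DESeq2 1.42.0, limma-voom and limma (3.58.1) on log2(FPKM + 1), a replicate block, leaving out each library and, chosen after the data were seen, removal of each library's trend over length. The 10 members, the 3 heat shock lists and the neighbours were chosen with earlier results of these data known. All members are named; further loci are the 2 most alike in profile and the called neighbours. No 2 libraries agreed within sampling noise (chi-square per degree of freedom at least 9.85).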

Additional observations from a re-analysis of the deposited data

How the results depend on the processing

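LOC_Os01g04380 and LOC_Os03g15960 kept their direction and their call in each of the 15 alternatives, at log2 fold changes of 2.216 to 2.824 and 0.6434 to 0.9075. The 4 called members became 3 with a filter of 1 CPM in 3 libraries, which leaves LOC_Os01g04370 untested, and with DESeq2, limma-voom and the replicate block, where that locus lost its call; with 1 library left out they numbered 2 to 4, all higher, and 0 members were called lower in any setting. LOC_Os01g04370 lost its call in 8 of 14 alternatives and fell to 0.5812 on log2(FPKM + 1), where the added 1 shrinks low values by construction. LOC_Os05g44340 lost its call in 4 of 15. Among members that were not called, a left-out library turned the sign of LOC_Os01g04350 (range -0.006494 to 0.1348), LOC_Os03g16030 (-0.3439 to 0.07643) and LOC_Os03g16040 (-0.07708 to 0.2157). Over all loci 3793 were called, 3638 to 4014 in the other settings and 2567 to 3500 with 1 library left out. The replicate block gave 3765 calls and 3 members. Over all tested loci the deviations of libraries with the same number correlated at 0.0281, -0.0267 and 0.0878, so the numbers were not treated as pairs. The mean level of the tested members nevertheless rose with replicate number in both genotypes. Library-size scaling and log2(FPKM + 1) shifted the median log2 fold change of all loci to 0.0381 and 0.0391. Of the lists, the other small heat shock proteins had 4 calls with no filter and 2 to 4 with 1 library left out. The large chaperones had 0 with library-size scaling, log2(FPKM + 1) and the length trend removed, 3 with no filter, 4 with DESeq2 and the replicate block, and 0 to 4 with 1 library left out, all lower. Heat shock factors had 2 to 4 and neighbours 3 to 5 calls with 1 library left out. The causes were not tested. The order of the members by level was the same in CPM per kilobase. Depth limits LOC_Os01g04340 and LOC_Os01g04360 most.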

Other observations

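At LOC_Os01g04360 the deposited FPKM and counts do not keep a fixed ratio. The length they imply ran from 927 to 2920 bases over the 6 libraries, the highest from the WT library with 1 count, whereas at LOC_Os01g04380 it ran from 947 to 975 bases.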
